A study of Mus musculus with 7 samples.

Results

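Rab GTPases, their named effectors and regulators, the endosomal tether Eea1 and the receptors and adaptors of apical endocytosis were examined in mouse glomeruli. The set held all 58 gene symbols that begin with Rab and a digit, together with Eea1, Lrp2, Cubn, Amn, Dab2, Rabep1, Appl1, Vps35, Ap2a1 and Ap2b1. These were 68 of the 12958 symbols measured. They were chosen by name, but with earlier results of these data known. By annotation and general knowledge 48 of the 58 Rab symbols are GTPases, and the other 10 are Rab11 effectors, regulators of Rab3 and Rab8, and the antisense RNA Rab10os.

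RNA was sequenced from bead-isolated glomeruli of 7 male BALB-C mice aged 14 weeks, 1 library per animal. Doxycycline was given to every mouse, with its food and drinking water, from 8 weeks of age and for 6 weeks. Mice of the knockdown group (n = 3) had a transgenic siRNA sequence against Shroom3, a gene of an actin-binding junction protein, and those of the control group (n = 4) were littermates without that transgene. The labels do not say which promoter or cell type drives the transgene.

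Rab proteins are small GTPases that sit on membranes in their GTP-bound form and recruit effectors that move, tether and fuse vesicles. Rab5 marks early endosomes and recruits EEA1, a long coiled-coil protein that binds a phosphoinositide of that membrane and tethers incoming vesicles to it. Rab4 and Rab11 return cargo to the surface, and Rab7 leads it to lysosomes. In the kidney the apical receptors megalin (Lrp2) and cubilin (Cubn, carried to the surface by amnionless, Amn) take up filtered protein, with the adaptor Dab2, clathrin and the AP2 complex. This uptake is best known from the proximal tubule.

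A single member passed the test, Eea1, which stood at 2.02 times its control level with knockdown. No Rab GTPase passed the test in either direction. The receptors Cubn and Amn had log2 fold changes of -0.47 and -0.42 that did not pass.

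The bases before the start sites of Eea1 and of its partner Rab5a are shown because Eea1 was the member that passed and Rab5a the GTPase that recruits its protein. They are the 250 bases upstream of the start in RefSeq, build GRCm38.p6, plus strand, at chr10:95940413-95940662 for Eea1 and chr17:53478984-53479233 for Rab5a. Capitals mark matches, on either strand, to any of 3 motifs. The E-box was searched as the letters CACGTG. The CCAAT box is spelled by its name, and no match of any motif overlapped another in the windows shown. The letters GGGCGG stand for the GC box.
Eea1: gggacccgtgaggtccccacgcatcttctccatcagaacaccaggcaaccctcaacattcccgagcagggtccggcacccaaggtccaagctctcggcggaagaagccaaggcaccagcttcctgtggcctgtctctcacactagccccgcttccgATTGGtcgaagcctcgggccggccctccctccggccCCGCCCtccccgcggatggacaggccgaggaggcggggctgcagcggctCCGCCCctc
Rab5a: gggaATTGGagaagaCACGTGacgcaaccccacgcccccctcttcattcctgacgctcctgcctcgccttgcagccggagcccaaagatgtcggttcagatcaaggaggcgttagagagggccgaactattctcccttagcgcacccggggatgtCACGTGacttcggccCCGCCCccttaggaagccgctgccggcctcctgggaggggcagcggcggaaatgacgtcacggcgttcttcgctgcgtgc
The Eea1 window held 1 CCAAT box, 2 GC boxes and no E-box (0 matches), and the Rab5a window held 2 E-boxes, 1 CCAAT box and 1 GC box. RefSeq gave such a window for 56 of the 68 members, of which 9 (16.1%) held an E-box, against 6.86% of all 27025 genes with a window and 1000 of the 9985 of these in the tables. A CCAAT box was in 48.2% of member windows and 39.8% of those of measured genes, and a GC box in 78.6% and 62.5%. These matches are letters in a window and were not tested as sites of any factor.

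Values are taken as log2, though the base of the logarithm is not stated. Library medians ran from 9.15 to 9.16, and counts were not used here, so depth and counting error are unknown. The 5 libraries with titles starting in G (2 knockdown, 3 control) and the pair with titles starting in CB6 (1 of each group) are called the G and CB6 libraries, and no source says what the styles mean. The deposited values are centred between these styles gene by gene (Eea1 has a mean of 12.70 over the G and 12.69 over the CB6 libraries). A CB6 library therefore mirrors its partner around the G mean, and its level is not independent of the other libraries. In the fit on groups p-values are thus too small, and SEs and 95% intervals too narrow. Shroom3 did not check the labels, at 10.80, 10.91 and 10.89 in knockdown and 10.94, 10.85, 11.36 and 11.06 in control libraries (limma, Benjamini-Hochberg adjusted p = 0.417). All 25 listed proximal tubule markers were measured, none below 9.04 in any library. Of these 11 fell and 0 rose, 17 were lower at an unadjusted p of 0.05, and their summed level ran from 17.54 to 17.93 in knockdown and from 18.22 to 18.64 in control libraries. All 20 podocyte markers were measured, none below 9.58, and 3 fell, while 9 were lower at an unadjusted p of 0.05 and 17 had negative differences (median -0.26). Their summed level ran from 18.26 to 18.50 in knockdown and from 18.20 to 18.65 in control libraries. Of 15 distal nephron and collecting duct markers 3 rose. Of 12 mesangial markers 2 fell, and of 15 endothelial and 5 measured immune markers 0 passed, with 4 endothelial ones lower at an unadjusted p of 0.05 (limma). Differences of the 25 proximal tubule markers were uneven, from -3.26 for Cyp2e1 to 0.31. In bulk tissue fewer cells of a type and less RNA per cell cannot be told apart. Changes of single genes were not tested apart from these.

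An adjusted p of 0.05 was passed by 391 of 12958 genes (3.02%), 129 higher (0.996%) and 262 lower (2.02%). Among members 1 of 68 passed (1.47%), 1 higher and 0 lower (limma with Benjamini-Hochberg adjustment over all genes). With so few genes, no difference from the share of all genes is read. At an adjusted p of 0.1 it was again 1 of 68, against 6.53% of all genes. At an unadjusted p of 0.05 it was 9 of 68 members (13.2%) against 18.4% of all genes, 4 higher and 5 lower. The median log2 fold change was 0.04 for members and 0.02 for all genes, and the median size regardless of sign was 0.10 and 0.11. Apart from Eea1 the differences ran from -0.47 to 0.65, and 53 of the other 67 members had an unadjusted 95% interval within 0.5 of zero on the log2 scale. The 0.65 is that of Rab15, which like Rab3il1 carried marks of a filled-in value, as described below. Among the 66 members without such marks, Eea1 included, the count within 0.5 of zero was 52. In this fit, whose intervals are too narrow, the interval lay within 1 of zero for 65 of the 67 members other than Eea1. A difference of the size of Eea1 lay outside those intervals. The exceptions were Rab15 and Rab39, with values down to 2.47 and 2.68.

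**Figure D1:**
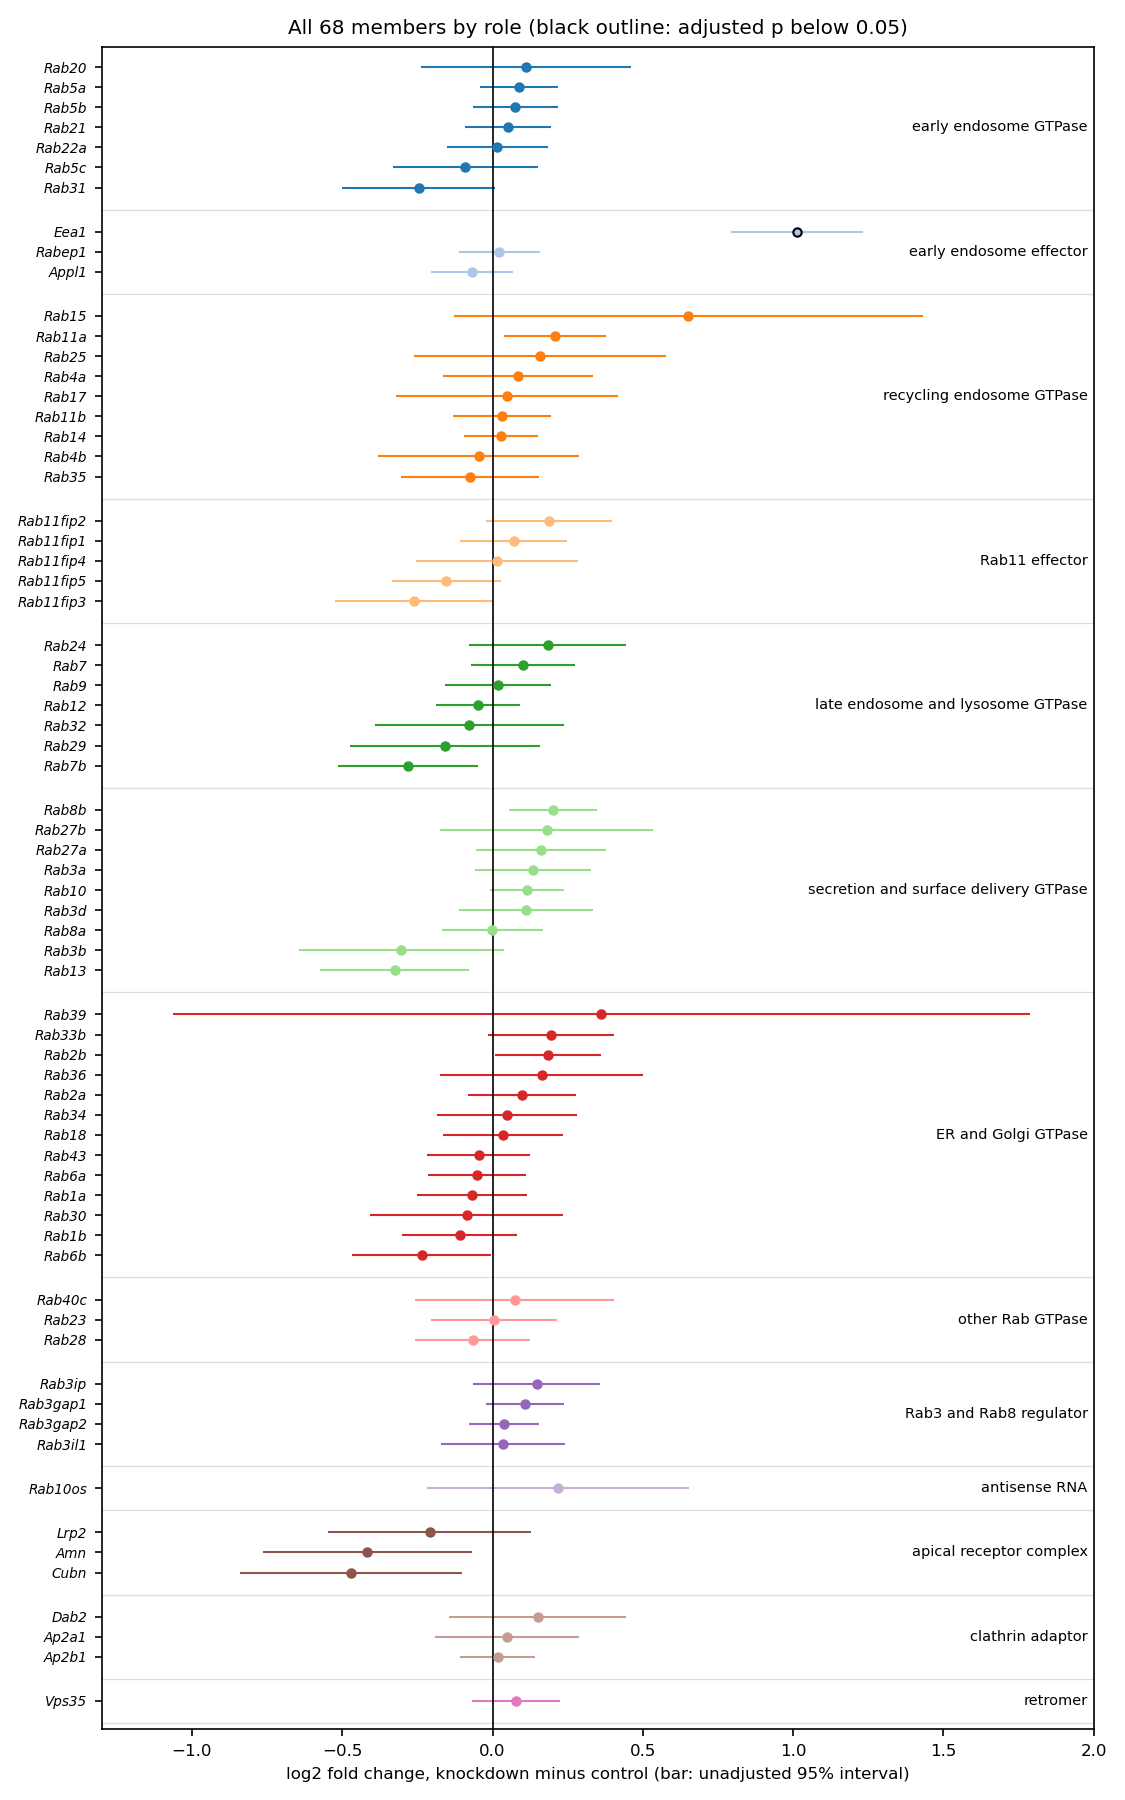
Log2 fold change of knockdown over control (horizontal axis) for each of the 68 members, grouped by role, with unadjusted 95% intervals. Eea1 stands at 1.01 with an interval from 0.79 to 1.23, and no other member passed an adjusted p of 0.05.

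The groups did not overlap for 9 of 68 members (13.2%), against 18.4% of all genes. In the G libraries alone they did not overlap for 16 members, against 29.7% of all genes. In these 9 genes knockdown was higher for Eea1, Rab8b, Rab10, Rab11a, Rab15 and Rab3il1 and lower for Rab13, Rab7b and Amn. Rab15 and Rab3il1 carried marks of a filled-in value: in the 5 G libraries they differed between libraries by the same offsets, within 0.003, as all 108 genes with such marks. Rab15 stood at 3.56 and 3.57 in the G knockdown and 3.53, 3.54 and 3.54 in the G control libraries, but at 4.63 and 2.47 in the CB6 knockdown and control libraries. No expression difference is read from Rab15 or Rab3il1, which leaves 7 of 66 members (10.6%) with groups apart.

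Among the effectors of the early endosome, Eea1 was high in every knockdown library. Eea1 (ENSMUSG00000036499; GRCm38 chromosome 10, 95940650 to 96045518, plus strand) had log2 expression of 13.42, 13.38 and 13.03 in knockdown and 12.21, 12.29, 12.20 and 12.35 in control libraries. The lowest knockdown library, replicate 3, stood above the highest control library, replicate 4, and these are the CB6 pair. The mean was 13.28 ± 0.21 (SD, n = 3) with knockdown and 12.26 ± 0.08 (SD, n = 4) without, which gave a log2 fold change of 1.01 (95% interval 0.79 to 1.23, SE 0.10; limma, Benjamini-Hochberg adjusted p = 0.00219). By p it ranked 21 among all 12958 genes and 7 among the 129 that rose. By size of the log2 fold change it ranked 125 among all genes, regardless of sign, and 19 among those that rose. In the G libraries alone, where 0.309% of all genes passed, Eea1 passed too (adjusted p = 0.00719). With title style as a covariate, which lowers the degrees of freedom, its adjusted p was 0.00466 and 1.47% of all genes passed. Since the values are already centred, that fit is no check on title style.

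The Eea1 difference was 1.17 within the G libraries and 0.68 within the CB6 pair. That gap of -0.49 between title styles had an unadjusted p of 0.0130 and did not pass over all genes (limma with an interaction term, Benjamini-Hochberg adjusted p = 0.773), in a test chosen after these values were seen and with 1 library per group in CB6. GENCODE lists 0 genes that overlap Eea1. The summed proximal tubule markers did not overlap between groups either, lower with knockdown. Of 15 distal nephron and collecting duct markers 3 rose and 0 fell, with a median of 0.205, and their summed levels overlapped between groups. The part of either list in the Eea1 value was not tested.

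**Figure D2:**
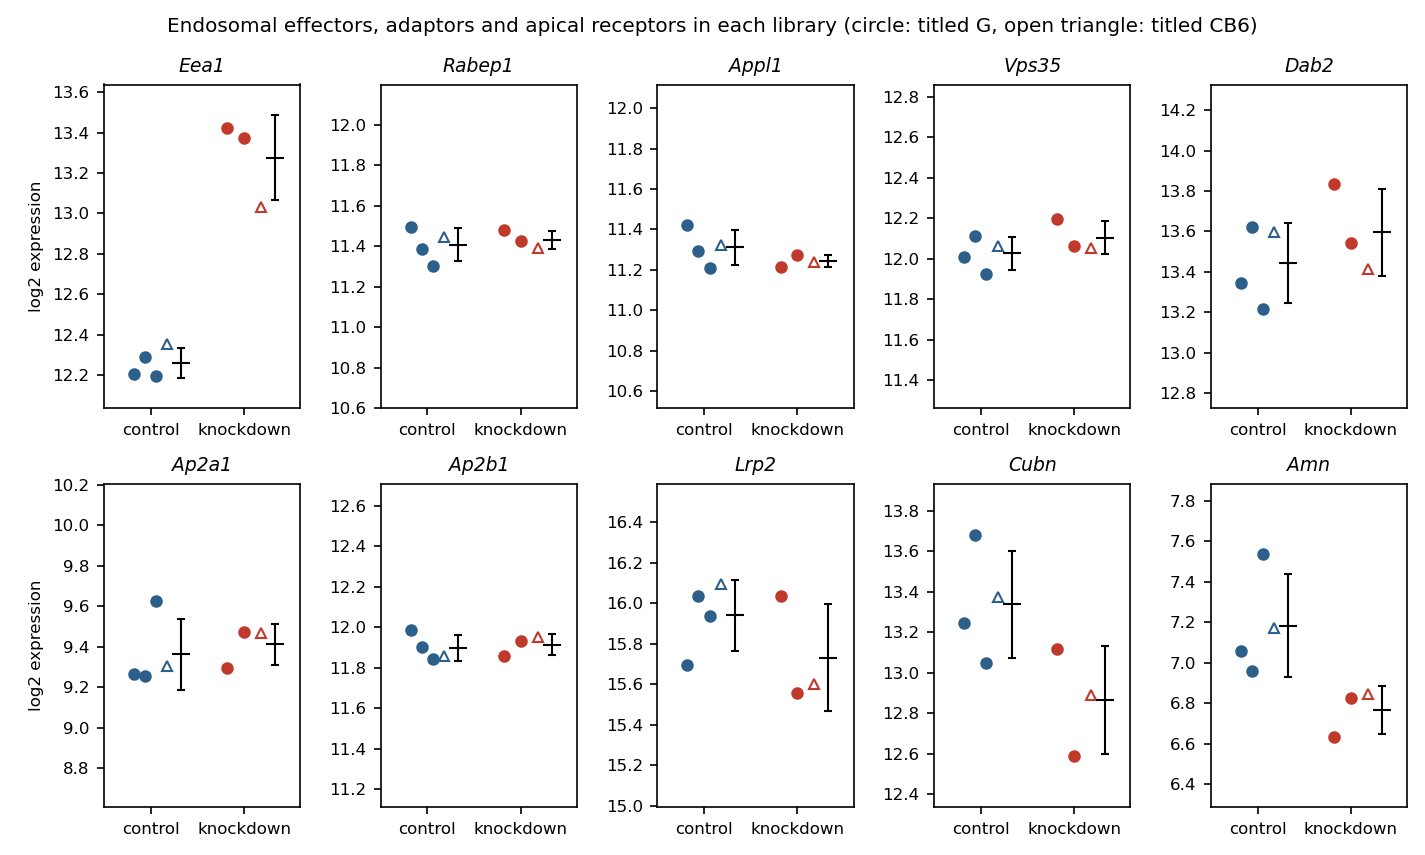
Log2 expression (vertical axes, each spanning at least 1.6) of 10 members in each library by group, circles for G and open triangles for CB6 libraries, with the mean and SD beside them. The Eea1 groups stand 0.68 apart at their nearest points, while those of Rabep1, Appl1 and Vps35 overlap.

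The other Rab5 effectors did not pass. Rabep1, the gene of rabaptin-5, which binds Rab5 and its exchange factor, was at 11.48, 11.43 and 11.39 in knockdown and 11.50, 11.39, 11.30 and 11.44 in control libraries. Its groups overlapped, with a log2 fold change of 0.02 (95% interval -0.11 to 0.16; limma, Benjamini-Hochberg adjusted p = 0.879). Appl1, an adaptor of endosomes that Rab5 marks before Eea1 arrives, was at 11.21, 11.28 and 11.24 against 11.42, 11.30, 11.21 and 11.32. The Appl1 groups overlapped as well, at -0.07 (95% interval -0.20 to 0.07; adjusted p = 0.593).

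The GTPases of the early endosome stayed close to control. Rab5a was at 10.98, 11.17 and 11.08 in knockdown and 11.02, 10.99, 10.98 and 10.97 in control libraries, a log2 fold change of 0.09 (95% interval -0.04 to 0.22). Rab5b was at 12.12, 12.22 and 12.15 against 12.21, 11.99, 12.07 and 12.09, a log2 fold change of 0.08 (95% interval -0.07 to 0.22). Rab5c was at 11.28, 11.05 and 11.20 against 11.05, 11.24, 11.51 and 11.26, a log2 fold change of -0.09 (95% interval -0.33 to 0.15). Groups overlapped for all of them and none passed (limma, Benjamini-Hochberg adjusted p = 0.462, 0.566 and 0.708). Their summed level was 13.15 ± 0.02 (SD, n = 3) on the log2 scale with knockdown and 13.12 ± 0.05 (SD, n = 4) without. Of the other early endosome Rabs, Rab21, Rab22a and Rab20 differed by 0.05, 0.02 and 0.11 and Rab31 by -0.25.

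**Figure D3:**
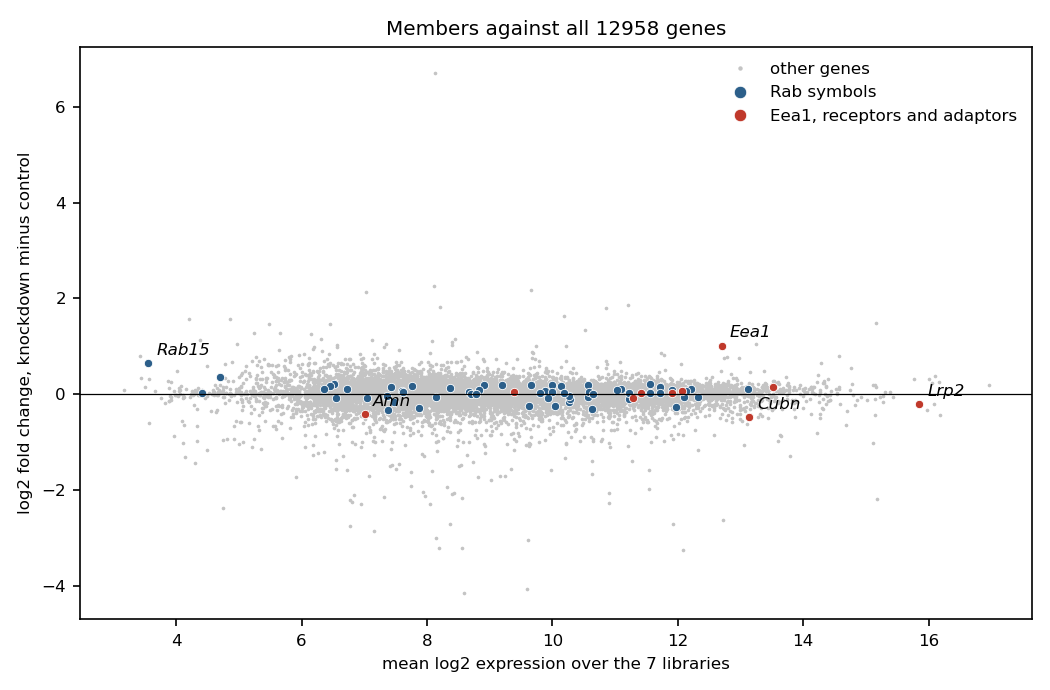
Log2 fold change (vertical axis) against mean log2 expression (horizontal axis) for all 12958 genes, with Rab symbols in blue and Eea1, receptors and adaptors in red. Rab symbols other than Rab15 run from -0.33 (Rab13) to 0.36 (Rab39). Rab15, at the low end of levels, is at 0.65, and Eea1 stands at 1.01.

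Among recycling Rabs, Rab11a had the smallest p. Rab11a, of the recycling endosome, was at 11.82, 11.64 and 11.55 in knockdown and 11.48, 11.46, 11.36 and 11.55 in control libraries. The groups were apart by less than 0.01, since the CB6 knockdown library exceeded the CB6 control library by 0.0076. Its log2 fold change of 0.21 (SE 0.07, 95% interval 0.04 to 0.38) did not pass (limma, Benjamini-Hochberg adjusted p = 0.184), and within the G libraries it was 0.29. The close relative Rab11b differed by 0.03, and how reads were shared between these similar genes is not known. Rab4a, of fast recycling, was at 9.03, 8.88 and 8.74 against 8.58, 8.84, 8.85 and 8.93, with overlapping groups and a log2 fold change of 0.09 (95% interval -0.17 to 0.34).

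The remaining recycling Rabs, Rab14, Rab25, Rab17, Rab4b and Rab35, differed by 0.03, 0.16, 0.05, -0.05 and -0.08. Of the 5 Rab11 effectors of the Rab11fip family, 3 were positive and 2 negative, from -0.26 for Rab11fip3 to 0.19 for Rab11fip2, and 0 passed, also at an unadjusted p of 0.05 (limma).

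Late endosomal Rabs showed no shared direction. Rab7, which directs fusion with lysosomes, was at 13.29, 13.19 and 13.06 in knockdown and 12.97, 13.12, 13.04 and 13.18 in control libraries. Its log2 fold change was 0.10 (95% interval -0.07 to 0.28; limma, Benjamini-Hochberg adjusted p = 0.521), positive within the G libraries (0.20) and negative within the CB6 pair (-0.12). Rab7b, a relative on late endosomes and Golgi, was at 7.70, 7.66 and 7.77 against 8.01, 8.14, 7.84 and 7.96. The Rab7b groups were apart, yet the log2 fold change of -0.28 (SE 0.10, 95% interval -0.51 to -0.05) did not pass (adjusted p = 0.187). Rab9, of transport from late endosomes to the Golgi, differed by 0.02, Rab24 by 0.18, Rab12 by -0.05, Rab29 by -0.16 and Rab32 by -0.08.

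Rabs of secretion and surface delivery had differences in both directions and none passed. Rab8b, which carries vesicles to the plasma membrane, was at 10.69, 10.71 and 10.64 in knockdown and 10.61, 10.40, 10.41 and 10.49 in control libraries. All knockdown libraries lay above all controls, by a log2 fold change of 0.20 (SE 0.06, 95% interval 0.05 to 0.35; limma, Benjamini-Hochberg adjusted p = 0.144), the smallest p of any Rab. Its relative Rab8a differed by -0.0008, with groups that overlapped. Rab13, of junctional traffic, was at 7.13, 7.24 and 7.21 against 7.68, 7.37, 7.46 and 7.55. Rab13 was below all controls in each knockdown library, by -0.33 (SE 0.11, 95% interval -0.57 to -0.08; adjusted p = 0.155).

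Rab10, which delivers the glucose transporter of fat and muscle to the surface, differed by 0.11 with groups apart. Its antisense RNA Rab10os differed by 0.22, and the reads of the pair could not be told apart if strand was not used. Rab3a, Rab3d, Rab27a and Rab27b, of regulated secretion, differed by 0.13, 0.11, 0.16 and 0.18. Rab3b differed by -0.30 (limma, Benjamini-Hochberg adjusted p = 0.321), and by -0.45 with an adjusted p = 0.0313 without control replicate 2, its lowest control library. With the other single libraries left out Rab3b ran from -0.35 to -0.22 and did not pass, and it is named here after its values were seen. The regulators Rab3gap1, Rab3gap2 and Rab3ip differed by 0.11, 0.04 and 0.15.

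**Figure D4:**
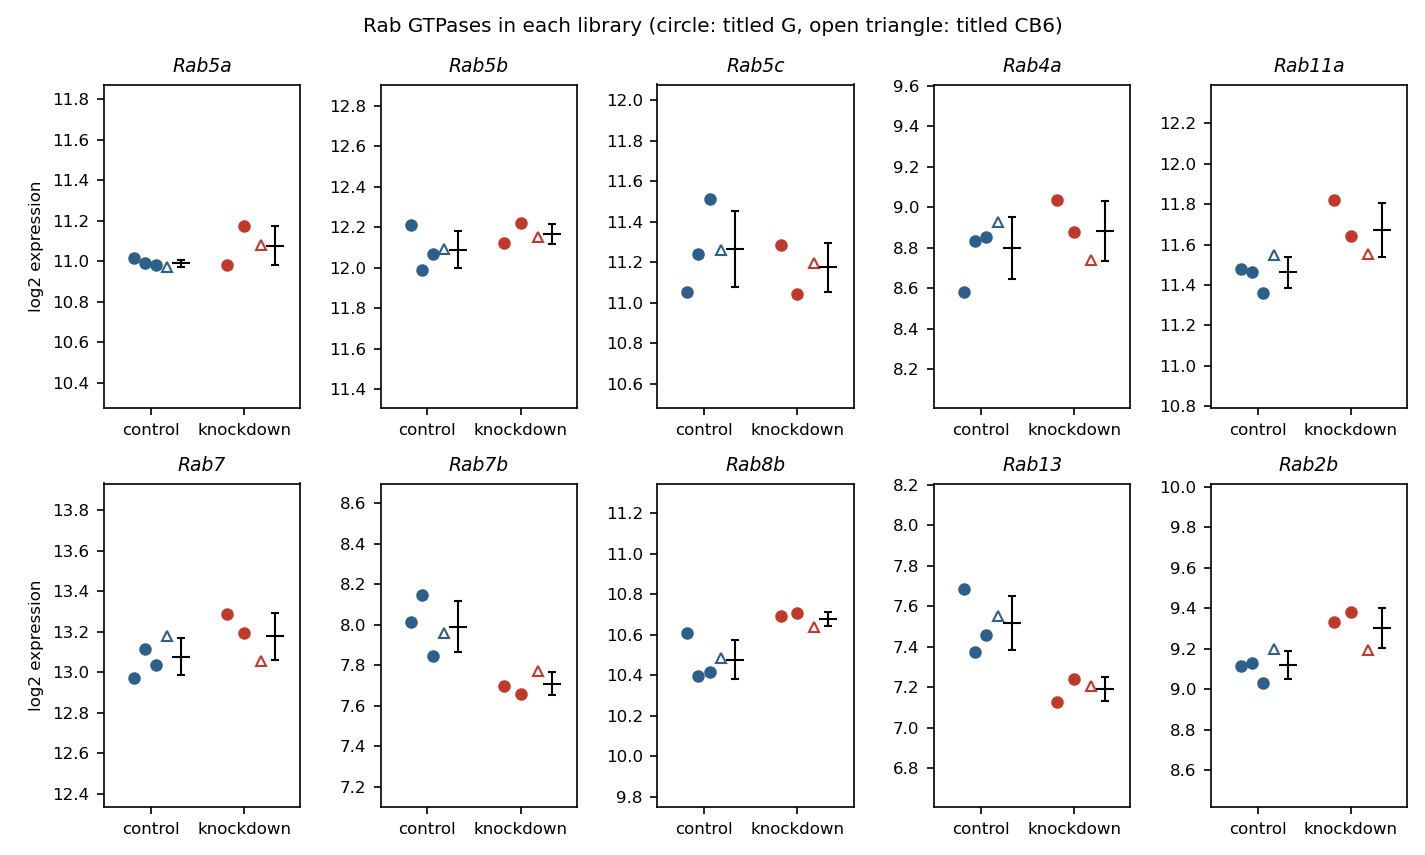
Log2 expression (vertical axes, each spanning at least 1.6) of 10 Rab GTPases in each library by group, circles for G and open triangles for CB6 libraries, with the mean and SD beside them. Groups are apart for Rab11a, Rab7b, Rab8b and Rab13, and overlap for the Rab5 genes, Rab4a, Rab7 and Rab2b.

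The 13 Rabs of the ER and Golgi had 7 positive and 6 negative differences and 0 past the threshold, with 2 at an unadjusted p of 0.05 (limma). Rab2b, of traffic between ER and Golgi, was at 9.33, 9.38 and 9.19 in knockdown and 9.11, 9.13, 9.03 and 9.20 in control libraries, overlapping only through the CB6 pair. Its log2 fold change was 0.18 (95% interval 0.01 to 0.36; limma, Benjamini-Hochberg adjusted p = 0.247). Rab6b, a Golgi Rab, differed by -0.24 and Rab6a by -0.05. Rab1a and Rab1b, of ER export, differed by -0.07 and -0.11, Rab2a by 0.10 and Rab18, of lipid droplets and ER, by 0.04.

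Rab33b, Rab36, Rab34, Rab43 and Rab30 differed by 0.19, 0.16, 0.05, -0.05 and -0.09. Rab39 spread from 2.68 to 5.47 over the control libraries alone, so that its difference of 0.36 carried an interval from -1.06 to 1.79. Rab23, Rab28 and Rab40c, outside these roles, differed by 0.0049, -0.07 and 0.07.

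The apical receptor genes had negative differences and none passed. Cubn was at 13.12, 12.59 and 12.89 in knockdown and 13.25, 13.68, 13.05 and 13.37 in control libraries. Only knockdown replicate 1 lay above the lowest control library, and the log2 fold change was -0.47 (SE 0.16, 95% interval -0.84 to -0.10; limma, Benjamini-Hochberg adjusted p = 0.168). It was -0.47 within the G libraries and -0.48 within the CB6 pair. Amn was at 6.63, 6.83 and 6.84 against 7.06, 6.96, 7.54 and 7.17, below all controls in each knockdown library. Its log2 fold change of -0.42 (SE 0.15, 95% interval -0.76 to -0.07) did not pass (adjusted p = 0.193).

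Lrp2 was at 16.04, 15.56 and 15.60 in knockdown and 15.69, 16.04, 15.94 and 16.10 in control libraries. Its groups overlapped, with knockdown replicate 1 above control replicates 1 and 3, and the log2 fold change was -0.21 (95% interval -0.55 to 0.13; limma, Benjamini-Hochberg adjusted p = 0.502). Within the G libraries Lrp2 differed by -0.09 and within the CB6 pair by -0.50. The 25 proximal tubule markers, a list without these 3 genes, had a median of -0.43 (range -3.26 to 0.31) against 0.02 over all genes. The part of the tubule markers in the receptor values was not tested.

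The adaptors of the same uptake route had positive differences and none passed. Dab2, which links megalin to clathrin, was at 13.83, 13.54 and 13.42 in knockdown and 13.34, 13.62, 13.22 and 13.60 in control libraries. Its log2 fold change was 0.15 (95% interval -0.14 to 0.44; limma, Benjamini-Hochberg adjusted p = 0.588), at 0.29 within the G libraries and -0.18 within the CB6 pair. Ap2a1, a large subunit of AP2, was at 9.30, 9.47 and 9.47 against 9.27, 9.26, 9.62 and 9.31, with overlapping groups and a log2 fold change of 0.05. Ap2b1, the other large subunit measured among the members, was at 11.86, 11.93 and 11.95 against 11.99, 11.90, 11.84 and 11.86, a log2 fold change of 0.02 that turned to -0.02 in the G libraries. Vps35, the core of the retromer that retrieves receptors from endosomes, was at 12.20, 12.06 and 12.05 against 12.01, 12.11, 11.92 and 12.06. Groups overlapped, at 0.08 (95% interval -0.07 to 0.22; adjusted p = 0.579).

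Beyond the members, 210 further genes of the Rab cycle and endocytosis were measured from 9 lists. Of these 1 passed (0.476%, against 3.02% of all genes), 1 higher and 0 lower, and 31 (14.8%) were at an unadjusted p of 0.05 against 18.4% of all genes (limma). Dennd4c, an exchange factor of Rab10, rose from a control mean of 11.67 ± 0.05 (SD, n = 4) to a knockdown mean of 11.94 ± 0.01 (SD, n = 3), by 0.27 on the log2 scale (SE 0.05; limma, Benjamini-Hochberg adjusted p = 0.0261). It passed in 8 of 15 other settings and not with title style as a covariate (adjusted p = 0.0822), nor in the G libraries alone (adjusted p = 0.293). It did not pass without any of the knockdown replicates or without control replicate 4. The other 33 measured exchange factors did not pass.

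None of the other lists held a gene past the threshold (limma). At an unadjusted p of 0.05 they held 4 of 32 Rab GTPase-activating proteins of the TBC family, 4 of 29 early endosome effectors and tethers, 2 of 13 genes of late endosome fusion, 6 of 27 clathrin, AP2 and dynamin genes and 5 of 24 recycling effectors. It was 5 of 24 partners of megalin and cubilin, 1 of 19 genes of retromer, sorting nexins and WASH, and 0 of 8 genes of Rab prenylation and GDP dissociation. By the naming rule, the most highly expressed genes of each list follow. Clathrin heavy chain Cltc differed by 0.15 and the clathrin assembly protein Picalm by -0.01. The lysosomal membrane proteins Lamp1 and Lamp2 differed by 0.09 and 0.06, the phosphoinositide kinase Pikfyve by 0.11 and the Rab5 effector Ankfy1 by 0.05.

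Gdi2, which extracts Rabs from membranes, differed by 0.07. The GTPase-activating proteins Evi5 and Tbc1d1 differed by 0.12 and -0.16. The retromer subunit Vps26a differed by 0.10 and the WASH subunit Washc5 by 0.09. The motor Myo5b, a partner of Rab11, differed by 0.31 (limma, Benjamini-Hochberg adjusted p = 0.0772) and Ehd3 of recycling by -0.23. The motor Myo6, which moves megalin inward, differed by 0.11 and the lysosomal protease Ctsb by -0.09. Without control replicate 2, the pathway genes that passed included Dennd4c, Myo5b (0.36), Ehd4 (-0.42) and Atp6v0a4 (0.32), with adjusted p from 0.0256 to 0.0420 (limma). The share of all genes that passed in that setting is not given here.

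**Figure D5:**
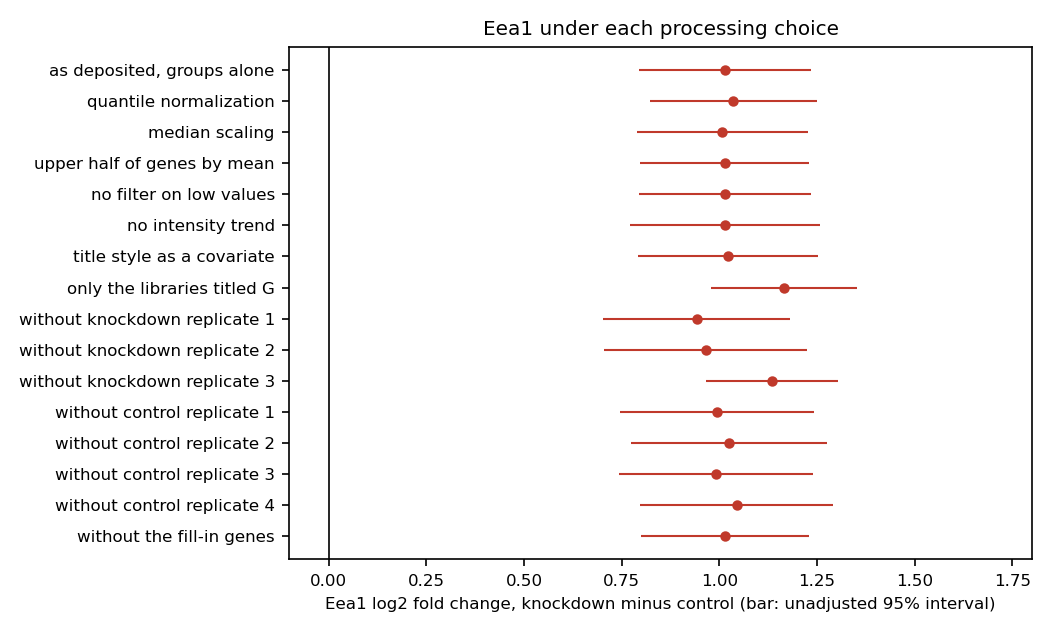
Log2 fold change of Eea1 (horizontal axis) with unadjusted 95% intervals as deposited and under 15 other processing choices. Values run from 0.94 without knockdown replicate 1 to 1.17 in the G libraries alone, and every interval lies above zero. The choice without a filter repeats the fit as deposited, since the filter dropped 0 genes.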

How the data were processed

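The authors deposited 1 table per library of gene symbols and log values, taken as log2. The base is not stated. Base 2 gave nearly equal summed antilogarithms in the 7 libraries. No other base was tried and the library medians were already nearly equal, so these sums do not settle the base. Reads were aligned with BWA to mm10, per the submitters' processing notes. For counting, strand and normalization the sources used here give nothing. Whether values are per length is unknown, so levels of different genes may not be comparable. Levels were still ranked to name pathway genes and to pick genes above the median level. They were also summed over the Rab5 genes and over marker lists.

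Group differences were fitted with limma 3.58.1 (R 4.3.3) with an intensity trend, Benjamini-Hochberg adjustment over all 12958 genes and a threshold of 0.05. The filter on low values dropped 0 genes. Across genes, the deviations of both CB6 libraries from the mean of their group correlated at -0.958. The mean of the G libraries and that of the CB6 libraries differed by at most 0.02 for 99.4% of the 12958 genes (median 0.0019, against a median within-group SD of 0.135). The deposited values are therefore centred between title styles, by a step the sources used here do not name. The fit on groups counts 5 residual degrees of freedom, while a fit with title style, which gives up the one that centring had used, has 4. Therefore p-values of the fit on groups are too small and its 95% intervals too narrow.

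Members and lists were chosen with earlier results of these data known. Values in every library are given for members past the threshold, the 10 symbols without Rab and a digit, Rab5a, Rab5b, Rab5c, Rab7, Rab11a, Rab4a and further Rabs by smallest p up to 10. From each pathway list the genes past the threshold are named, otherwise the 2 most highly expressed. Some genes that this rule or an alternative would name are not reported here. Alternatives were quantile normalization, median scaling, genes above the median level, no filter, no trend, title style as a covariate, G libraries alone, each library left out and other thresholds. Omitting 108 genes with fill-in values was added after seeing the data.

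All 68 members matched GENCODE M21 (GRCm38, 1-based). Another annotated gene lies on the other strand of 29 members, in the tables for 13. On simulated data for this comparison (12958 genes), 51 of 100 genes changed by 0.5 and 86 of 100 changed by 1 were recovered, with 8 false calls. The simulated libraries were drawn independently, without the mirroring of the CB6 libraries. These counts therefore do not give the recovery or false calls for the deposited values.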

Additional observations from a re-analysis of the deposited data

Results flagged for a closer look

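A sample far from the others was looked for in the 4 control libraries of each of the 68 members, and 2 were found. Chance alone flags about 1 in 20 groups. Rab15 stood at 2.47 in control replicate 4, a CB6 library, while the other controls held 3.53 to 3.54. Rab15 carries marks of a filled-in value in the G libraries, so that their closeness is no measure of spread, and no difference is read from it. Ap2a1 stood at 9.62 in control replicate 3, while the other controls held 9.26 to 9.31.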

How the results depend on the processing

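Eea1 kept its direction and passed in all 15 other settings (the fit with title style is no check on it, since values are centred between styles), with log2 fold changes from 0.94 to 1.17 and adjusted p (limma, Benjamini-Hochberg) from 0.000963 to 0.0139, and with a library left out it ran from 0.94 to 1.14. The fit without a filter repeats the main fit for every gene, since the filter dropped 0 genes, and is no check either. The count of members past the threshold was 1 in every setting but without control replicate 2, where Rab3b made it 2 (leaving out a library gave 1 to 2). The count of pathway genes past the threshold, 1 as reported, was 0 without an intensity trend and with a covariate for title style and in the G libraries alone, 3 at an adjusted p of 0.1, 0 at 0.01, and 0 to 5 with a library left out. The number of members with groups apart, 9 as reported, was 4 among genes above the median level, where fewer members enter, 16 in the G libraries alone, where 29.7% of all genes were apart, and up to 15 with a library left out (range 10 to 15), where fewer libraries have to be apart. Shares of all genes are not given here for the fits with a library left out or for genes above the median level. No difference from all genes is read from the counts of members or pathway genes in those settings. Of the 20 members given in every library, 2 changed sign in some setting. Rabep1 was at -0.0004 without knockdown replicate 1 and -0.0117 without control replicate 3 (up to 0.0523 with another library left out), and Ap2b1 at -0.0158 in the G libraries alone, -0.0026 without knockdown replicate 3 and -0.0004 without control replicate 3 (up to 0.0468). No paired analysis was possible because the labels give no numbers that tie a knockdown animal to a control animal. With no counts, what depth limits could not be given.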

Other observations

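The measured genes that lie nearest to Eea1 on chromosome 10 had small differences. Annotated genes that were not measured were passed over. The 4 genes before it were Socs2, Mrpl42, Ube2n and Nudt4, up to 555.3 kb away, and the 5 after it were Btg1, Dcn, Atp2b1, Poc1b and Galnt4, up to 3167.5 kb away. A further gene before it, Cradd, carried marks of a filled-in value and was left out. Of these neighbours 0 of 9 passed the test and 1 was at an unadjusted p of 0.05 (limma), with differences from -0.07 to 0.27. The highest was Btg1, a gene that restrains cell division, at 11.23 ± 0.17 (SD, n = 3) with knockdown and 10.96 ± 0.07 (SD, n = 4) without, with groups apart (limma, Benjamini-Hochberg adjusted p = 0.131). The choice of these neighbours was made after the Eea1 value was seen.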
